A study of Bos taurus with 18 samples.

Results

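The comparison asks how the response to the luteinising hormone (LH) surge differed between the theca and the membrane-associated granulosa of the bovine preovulatory follicle. The theca interna is the vascular outer layer, which makes androgen and carries LH receptors from early in follicle growth. Granulosa cells line the inside of the basement membrane without blood vessels, convert the androgen to oestradiol and gain LH receptors only late in growth. The surge ends androgen and oestradiol production and starts ovulation and luteinisation.

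Of 6 groups of arrays, 4 are used here. From each of 3 cows (D, F and G) the single dominant follicle was taken ahead of the surge, and from each of 3 others (A, B and C) at 22 h after GnRH, which induces the surge. Theca and membrane-associated granulosa of each follicle went on separate arrays, so 12 of the 18 arrays enter the contrast. The remaining arrays held aspirated antral granulosa and entered the fit to estimate the spread. No breed, age or other treatment is given in the labels, and the animals before and after LH were different cows.

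For each of 24016 probe sets the LH effect is the mean log2 signal after LH minus that before it. The gap is theca minus membrane granulosa within a cow. The difference in LH effect is the mean gap after LH minus the mean gap before it, which equals the LH effect in theca minus that in granulosa. A positive difference means that theca ended higher, relative to granulosa, than it began. Differences are log2 values ± standard error (SE), and adjusted p is that of limma's 2-sided test with the cow as a fixed block and Benjamini-Hochberg correction. A gene is read from its brightest probe set, and a call is an adjusted p under 0.05. Values per cow are given in the order D, F, G before LH and A, B, C after it. The files hold no detection calls, so 4.62, the mean signal that 16011 of the 24016 probe sets exceeded, serves as a limit for dim values. A group is called below the limit when all 3 of its arrays are.

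The labelled cell types were checked against markers. The mean over 17 granulosa markers was 10.52 to 10.59 on membrane granulosa arrays and 8.32 to 9.27 on theca arrays before LH. The mean over 12 theca markers was 10.69 to 11.10 on theca arrays and 7.26 to 9.39 on granulosa arrays at that time, lowest in cow F. CYP19A1, the aromatase of granulosa, read 10.85, 11.82 and 8.21 on theca arrays before LH, and CYP17A1, the androgen-making enzyme of theca, read 10.42, 4.90 and 8.84 on granulosa arrays. Each cell type therefore carried the other's markers before LH, most unevenly in cow F. In such samples a smaller share of a cell type and less RNA per cell cannot be told apart. After LH the granulosa marker mean was 8.17 to 8.80 in granulosa and 7.56 to 7.70 in theca, so its gap shrank. The theca marker mean was then 8.16 to 8.72 in granulosa and 9.64 to 10.15 in theca. The part of carried-over RNA in the results below was not tested.

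The LH response differed between the layers for 2192 of the 24016 probe sets, or 9.13%, with 1095 more positive in theca (4.56%) and 1097 more negative (4.57%). Among 9155 genes, 1064 were called (11.6%), 518 with a positive (5.66%) and 546 with a negative difference (5.96%), and 721 of them differed by 2-fold or more. The counts of probe sets were 1074, 1190 and 1301 without cows A, B and G, and 1016 with no cow block. On the 12 arrays of the contrast alone the count was 1649, and 1523 of the 2192 calls were kept. The gaps of the 3 cows after LH did not overlap those of the 3 cows before it for 26.9% of all probe sets and 30.5% of all genes.

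Most of these genes moved chiefly in granulosa. Of the 1064 called genes, 706 had LH effects of the same sign in both layers that were larger in granulosa (66.4%, against 46.1% of all genes). Effects had opposite signs in 309 (29.0%, against 32.9% of all genes), and the same sign but larger in theca in 49 (4.61%, against 21.0%). An LH effect was called in granulosa and not in theca for 798, in theca and not in granulosa for 59, in both with the same sign for 109, in both with opposite signs for 4 and in neither for 94. These were 75%, 5.5%, 10.2%, 0.38% and 8.8% of the called genes, against 22.45%, 1.58%, 3.56%, 0.04% and 72.4% of all genes. Over all probe sets the LH effect was called for 5041 (21.0%) in membrane granulosa and 941 (3.92%) in theca. Over all genes it was called in granulosa for 26.1% (13.1% rises and 12.9% falls) and in theca for 5.19% (2.34% rises and 2.85% falls). The median size of the LH effect over all genes was 0.30 in granulosa and 0.19 in theca. For 617 of the called genes (58.0%, against 30.4% of all genes) the gap changed sign. In these the layer with the higher mean before LH had the lower mean after it. In 151 of the called genes (14.2%, against 1.65% of all genes) the gap was called at both times with opposite signs. The gap narrowed in 346 called genes (32.5%, against 42.1% of all genes) and widened in 101 (9.49%, against 27.4%).

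**Figure D1:**
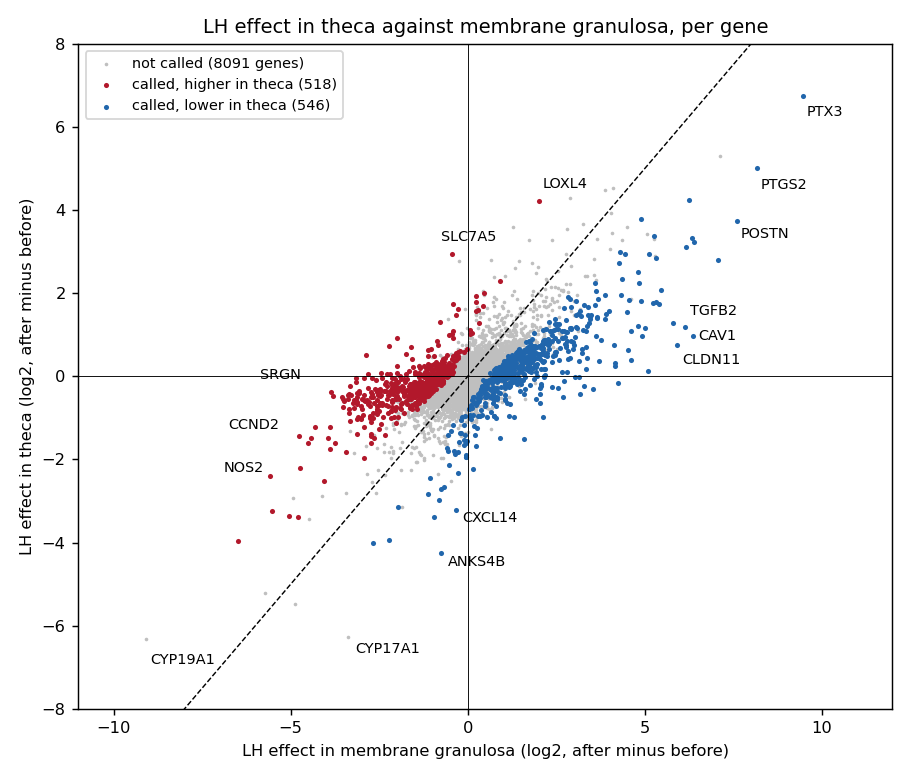
Each point is 1 of 9155 genes, with its LH effect in membrane granulosa (log2, after minus before) on the x axis and its LH effect in theca on the y axis. Red and blue points have a called positive or negative difference in LH effect, and on the dashed line both effects are equal. The coloured points spread further along the granulosa axis than along the theca axis.

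The most negative differences belonged to genes that rose steeply in granulosa from a low level while theca was already high. CAV1, the scaffold protein of caveolae, had the largest. It read 6.40, 5.99 and 6.32 in granulosa before LH and 13.00, 12.75 and 12.07 after it. In theca it read 10.32, 11.10 and 10.66 before and 12.01, 11.71 and 11.28 after. Theca was the higher layer in all 3 cows before LH and granulosa in all 3 after it, with no overlap of the gaps (3.92, 5.11 and 4.34 against -1.04 to -0.79). The difference was -5.40 ± 0.28 (n = 3 cows per time, limma adjusted p = 3.58e-06). CAV1 rose in granulosa by 6.37 ± 0.24 and in theca by 0.98 ± 0.24. Its partner CAV2 differed by -1.99 ± 0.26 (limma adjusted p = 0.000588).

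CLDN11, a tight junction protein, read 5.71, 5.31 and 6.45 in granulosa before LH and 11.68, 12.67 and 10.86 after it. Theca read 9.46, 11.14 and 10.20 before and 11.35, 11.04 and 10.64 after. Granulosa was below theca in every cow before LH and above it in every cow after LH, by 0.22 to 1.63. The difference was -5.17 ± 0.57 (limma adjusted p = 0.000239), with a called rise in granulosa (5.91 ± 0.49) and an uncalled value of 0.74 ± 0.49 in theca. LMO7, a protein of adherens junctions and the cytoskeleton, was as one-sided. Its granulosa levels were 5.50, 5.04 and 4.84 before and 10.80, 10.36 and 9.47 after LH, against 7.97 to 8.70 in theca before and 8.28 to 8.73 after (difference -4.96 ± 0.35, limma adjusted p = 3.38e-05).

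TGFB2, a ligand of the transforming growth factor beta family, read 4.44, 4.79 and 4.48 in granulosa before LH and 11.26, 11.73 and 9.15 after it. Theca read 7.81, 7.23 and 7.66 before and 9.34, 8.74 and 8.18 after. TGFB2 signal was higher in theca in all 3 cows before LH and higher in granulosa in the 3 other cows after it (difference -4.96 ± 0.43, limma adjusted p = 7.47e-05). The receptor subunit TGFBR2 differed in the same direction (-2.04 ± 0.48, limma adjusted p = 0.0185), but theca kept the higher mean at both times. Its call ended without cow A (adjusted p = 0.0772), cow B (0.0543), cow C (0.0727) or cow F (0.0726) and with no cow block (0.0589).

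Genes of the extracellular matrix with large negative differences were P4HA3, a collagen prolyl hydroxylase subunit, POSTN and TNC. P4HA3 read 5.17, 5.28 and 5.85 in granulosa before LH and 11.30, 11.69 and 10.72 after it, against 7.83, 8.88 and 8.91 and then 9.84, 9.53 and 10.08 in theca. It was the higher in granulosa in all 3 cows after LH (difference -4.53 ± 0.35, limma adjusted p = 4.82e-05). POSTN, the matrix protein periostin, rose in both layers, by 7.61 ± 0.39 in granulosa and 3.74 ± 0.39 in theca (difference -3.87 ± 0.54, limma adjusted p = 0.000929). Its granulosa levels before LH were 3.57, 5.46 and 4.12, with 2 of 3 arrays under the limit for dim values. TNC, tenascin C, differed by -3.67 ± 0.51 (limma adjusted p = 0.000929), and a second, dimmer TNC probe set did not (0.20, adjusted p = 0.676). Over the whole list of 40 measured matrix genes, 4 differences were positive and 4 negative (5.66% and 5.96% of all genes), with a median of -0.62 against -0.01 over all genes.

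The other large negative differences were those of CDKN1C, a cyclin-dependent kinase inhibitor (-4.42 ± 0.58), LOC513055, which the RefSeq table lists with RGS2 as a synonym and which is a regulator of G-protein signalling (-4.26 ± 0.82), and GNG2, a G-protein gamma subunit (-4.21 ± 0.44). NDRG1, a gene of the stress response, differed by -3.96 ± 0.41, the membrane protein TM4SF1 by -3.93 ± 0.57 and the cell cycle regulator RGCC by -3.90 ± 0.40. All of these rose in granulosa. In theca only LOC513055 was called, with a rise of 2.81. CDKN1C was not called with no cow block (adjusted p = 0.0587), and its 2 dimmer probe sets (-0.36 and -0.68) were not called. A dimmer RGCC probe set (-0.15) was not called either.

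**Figure D2:**
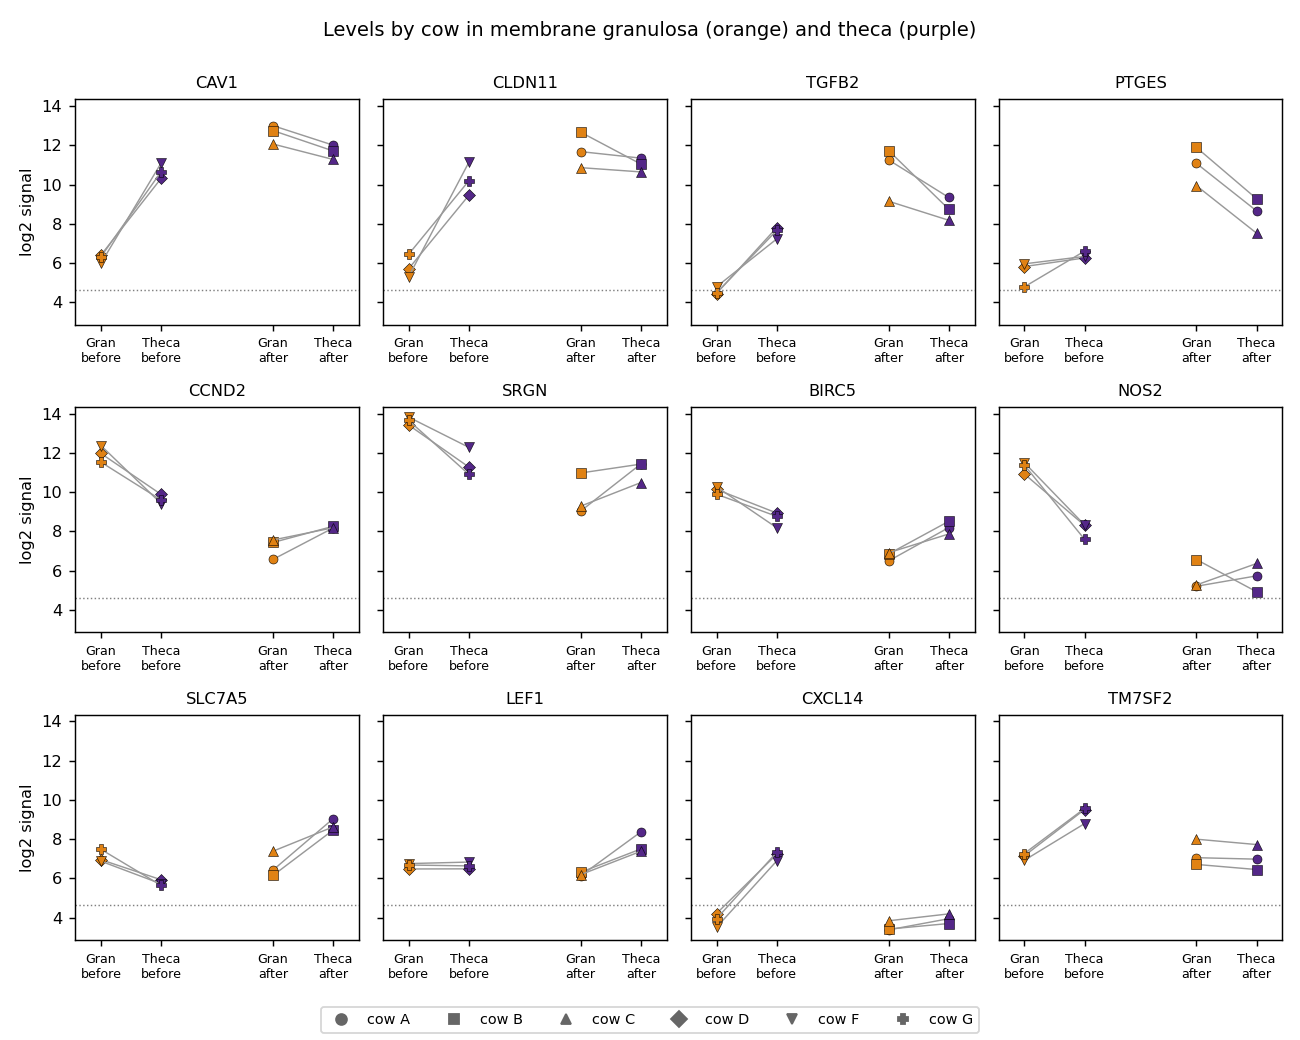
Log2 signal of 12 genes on every theca (purple) and membrane granulosa (orange) array, with 1 symbol per cow and a line joining the 2 layers of a cow. The dotted line is the limit for dim values, 4.62. In the top row granulosa lay below theca before LH in every cow and above it after LH, in the middle row granulosa lay above theca before LH, and in the bottom row the change was chiefly in theca.

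Of the ovulatory cascade, the genes that LH induces through cyclic AMP and epidermal growth factor signalling, 9 differed in LH effect, nearly all toward granulosa. Of 32 measured members, 8 had a called negative difference and 1, the matrix proteoglycan VCAN, a positive one (limma adjusted p = 0.0185), against 5.96% and 5.66% of all genes. VCAN fell in granulosa, and its call ended without cow B (adjusted p = 0.0781), cow C (0.0562) or cow G (0.0669) and with no cow block (0.281). That call also ended with the 12 theca and membrane granulosa arrays alone, dim values raised to the limit, or the cow as a random block. Leaving out a cow gave 7 to 9 negative calls. The list's median difference was -0.08. In granulosa 11 members rose and 3 fell, where 13.1% and 12.9% of all genes did. In theca 11 rose and 1 fell, where 2.34% and 2.85% of all genes did.

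PTGS2, the inducible enzyme of prostaglandin synthesis, read 3.83, 3.61 and 3.79 in granulosa and 4.26, 4.34 and 4.33 in theca before LH, all below the limit. After LH it read 12.54, 12.56 and 10.66 in granulosa and 10.40, 9.98 and 7.61 in theca. Granulosa exceeded theca by 2.14 to 3.05 in the 3 cows after LH. The fitted difference was -3.16 ± 0.37 (limma adjusted p = 0.000331). Because both layers began below the limit, it has no bound of its own. PTGES, which makes prostaglandin E2 from the product of PTGS2, read 5.82, 5.95 and 4.78 and then 11.08, 11.89 and 9.94 in granulosa. In theca it read 6.26, 6.33 and 6.60 and then 8.65, 9.27 and 7.52 (difference -3.37 ± 0.44, limma adjusted p = 0.000629). HPGD, which inactivates prostaglandins, fell in both layers and more in theca (-2.82 against -1.11, difference -1.71 ± 0.47, limma adjusted p = 0.0403). That call ended without any 1 cow other than D (adjusted p from 0.0858 to 0.143) and with no cow block (0.0894), and granulosa after LH was below the limit. On the 12 theca and membrane granulosa arrays alone HPGD was not called either.

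PTX3, which organises the hyaluronan matrix around the oocyte, reached nearly the same level in both layers. It read 4.17, 4.06 and 3.59 in granulosa and 5.91, 7.20 and 6.10 in theca before LH, and 13.52, 13.20 and 13.53 against 13.52, 12.62 and 13.34 after it. The difference of -2.72 ± 0.34 (limma adjusted p = 0.000492) thus came from the lower start of granulosa, and counting granulosa before LH at the limit it was at least 2.04 in size. NTS, the peptide neurotensin, read 11.81, 11.10 and 9.43 in granulosa and 8.90, 9.03 and 8.67 in theca after LH. Its difference was at least 2.92 in size against granulosa levels below the limit before LH (limma adjusted p = 0.00135). TNFRSF6B, a decoy receptor for FAS ligand, rose by 6.34 in granulosa and 3.32 in theca (difference -3.02 ± 0.34, limma adjusted p = 0.000239). TIMP1, a metalloproteinase inhibitor, rose by 5.26 and 3.37 (-1.89 ± 0.37, limma adjusted p = 0.00679). It was not called with no cow block (adjusted p = 0.0946).

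ADAMTS1, a protease that cleaves versican in the ovulating follicle, differed by -1.93 ± 0.31 (limma adjusted p = 0.00232). Its gaps were 2.19, 3.33 and 2.36 before LH and 0.99, 0.63 and 0.49 after it, so theca stayed the higher layer in every cow. A dimmer ADAMTS1 probe set read -0.64 and was not called. VNN2, a pantetheinase, rose in both layers (7.14 in granulosa, 5.31 in theca), and the difference of -1.83 ± 0.66 was not called (limma adjusted p = 0.117). TNFAIP6, which links hyaluronan chains, was the reverse in sign (1.55 ± 0.60, limma adjusted p = 0.14). It read 13.04, 11.42 and 13.66 in granulosa before LH, and 11.30, 9.10 and 9.49 in theca. OXT, the oxytocin precursor, rose by 4.05 in granulosa and 3.93 in theca, and its difference was -0.12 ± 0.58, with a 95% interval from -1.39 to 1.14. Without cow D the calls of VNN2 (adjusted p = 0.0437) and TNFAIP6 (0.0273) were made, and without cow C that of OXT (-0.86, adjusted p = 0.0486).

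Immediate early genes, transcription factors and phosphatases that rise within minutes of a signal, were listed with the heat shock genes. Of the 32 measured members, 17 rose in granulosa (13.1% of all genes did) and 5 in theca (2.34% of all genes did), and none was called lower in either. FOS, a subunit of the AP-1 factor, rose by 5.33 in granulosa and 2.84 in theca (difference -2.49 ± 0.49, limma adjusted p = 0.00751). DUSP1, a phosphatase that switches off MAP kinases, differed by -1.41 ± 0.28 (limma adjusted p = 0.00777) and IER2 by -0.99 ± 0.20 (limma adjusted p = 0.00926). Of the differences in LH effect, 5 were called negative and 1 positive (5.96% and 5.66% of all genes), with a median of -0.36 over the 32. The negative calls were 2 without cow A and 3 without cow D or cow G. With no cow block, and with the cow as a random block, FOS alone of these 3 was called. Without cow A IER2 was not called (adjusted p = 0.074), and without cow B FOS was not (adjusted p = 0.0561).

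Cell cycle genes had the most one-sided pattern of the lists. Of 47 measured members, 34 had a positive and none a negative called difference, where 5.66% of all genes were called positive, and the median difference was 1.39. In granulosa 38 of the 47 fell after LH (12.9% of all genes did), while in theca CCND2 fell and none rose. The list mean was 8.71 to 8.82 in granulosa and 8.07 to 8.44 in theca before LH. After LH it was 6.71 to 7.26 in granulosa and 7.78 to 8.37 in theca. Granulosa therefore lay above all theca arrays before LH and below all of them after it. The gap changed sign in 33 of the 34 called genes. The count was 23 to 34 when a cow was left out, 28 with no cow block, and 27 positive and 1 negative with dim values raised to the limit.

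CCND2, the cyclin D of granulosa proliferation, read 11.98, 12.38 and 11.53 in granulosa before LH and 6.57, 7.44 and 7.56 after it. Theca read 9.89, 9.42 and 9.60 before and 8.18, 8.26 and 8.19 after. It fell by 4.77 ± 0.26 in granulosa and by 1.43 ± 0.26 in theca (difference 3.34 ± 0.30, limma adjusted p = 8.02e-05). BIRC5, the mitotic protein survivin, read 10.14, 10.28 and 9.90 and then 6.50, 6.85 and 6.91 in granulosa. In theca it read 8.94, 8.19 and 8.77 and then 8.20, 8.52 and 7.87, and these ranges overlapped (difference 2.92 ± 0.27, limma adjusted p = 8.99e-05). TK1, thymidine kinase of the S phase, had gaps of -1.71, -2.62 and -1.57 before LH and 0.90, 1.02 and 0.64 after it (2.82 ± 0.27, limma adjusted p = 0.000103). PCLAF, a partner of the replication clamp, began at the same level in both layers (10.57, 10.37 and 10.53 in granulosa, with gaps of -0.09, -0.37 and 0.14). After LH it read 5.74, 7.07 and 8.12 in granulosa and 9.70, 10.41 and 9.41 in theca (difference 2.97 ± 0.50, limma adjusted p = 0.00296).

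The called cell cycle genes covered the mitotic cyclins and kinases, the spindle checkpoint and DNA replication, and the examples here were chosen after their values were seen. CDK1 differed by 2.17 ± 0.30, the cyclins CCNA2 by 2.86 ± 0.52 and CCNB2 by 2.60 ± 0.33. The checkpoint kinases BUB1 and BUB1B differed by 2.90 ± 0.28 and 2.93 ± 0.31, and the kinetochore protein NDC80 by 2.79 ± 0.30. Of the replication helicase, MCM3 differed by 1.64 ± 0.26, while MCM6 (0.31) and MCM7 were not called. The cyclins CCND1 (0.04) and CCND3 (-0.20), the kinase CDK4 (0.22) and the inhibitor CDKN1A (-0.55) were not called.

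**Figure D3:**
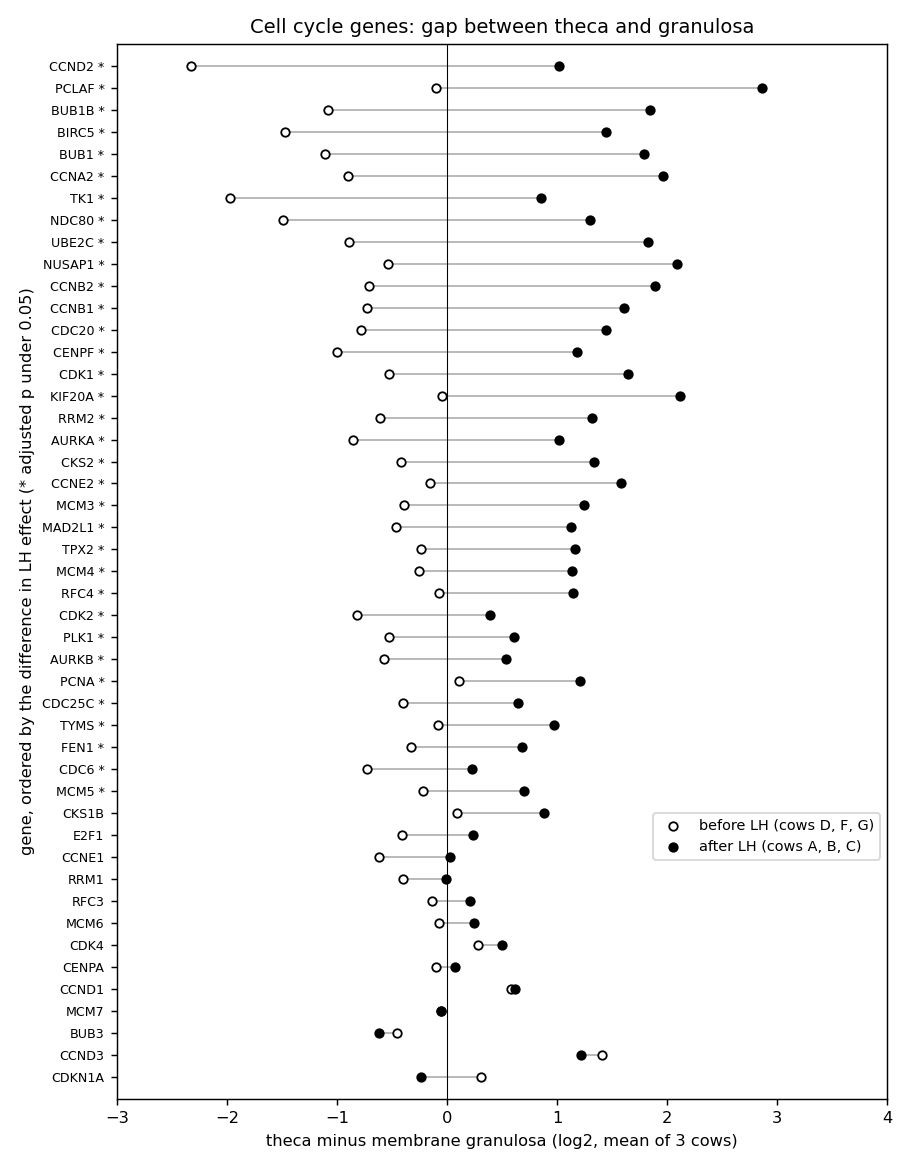
Mean gap of 3 cows (theca minus membrane granulosa, log2) for the 47 measured cell cycle genes before LH (open) and after LH (filled), with a star for each of the 34 called genes. Most open points lie left of 0 and most filled points right of it.

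Several genes outside the cell cycle list with large positive differences were high in granulosa before LH and fell there. SRGN, the proteoglycan serglycin, had the largest positive difference of all genes. It read 13.42, 13.83 and 13.66 in granulosa before LH and 9.04, 10.98 and 9.29 after it, while theca read 11.28, 12.29 and 10.91 and then 11.45, 11.43 and 10.49. The theca values overlapped between the times and the granulosa values did not (difference 3.50 ± 0.42, limma adjusted p = 0.000359). RASGEF1B, an exchange factor of small GTPases, differed by 3.41 ± 0.52 (limma adjusted p = 0.00149). DLL4, a ligand of NOTCH receptors, read 10.11, 8.51 and 7.48 in granulosa before LH and 4.75, 4.61 and 5.29 after it. It varied between cows before LH in theca too (8.31, 7.32 and 6.43), and the gaps within cows were close at -1.79, -1.19 and -1.06 (difference 3.34 ± 0.25, limma adjusted p = 3.99e-05).

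NOS2, the inducible nitric oxide synthase, fell by 5.59 ± 0.39 in granulosa and 2.40 ± 0.39 in theca (difference 3.19 ± 0.56, limma adjusted p = 0.00375). After LH its gaps were 0.53, -1.65 and 1.09, so that neither layer was the higher one throughout. IL6R, the interleukin 6 receptor, read 9.61, 9.55 and 9.78 and then 4.91, 4.96 and 6.11 in granulosa (difference 3.10 ± 0.34, limma adjusted p = 0.00021). CYBB, the catalytic subunit of phagocyte NADPH oxidase, differed by 3.07 ± 0.44 (limma adjusted p = 0.000987). ADGRG1, an adhesion G-protein-coupled receptor, differed by 3.12 ± 0.38, the metalloproteinase ADAM12 by 3.10 ± 0.50 and the kinase activator MOB3B by 3.01 ± 0.37. Each of these 3 fell in granulosa by 3.15 to 3.33, and none was called in theca.

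Among genes of WNT and retinoid signalling, 3 of 21 measured differences were positive and 3 negative, against 5.66% and 5.96% of all genes. STRA6, a transporter that takes up vitamin A, had gaps of -2.54, -2.84 and -2.59 before LH and -0.06, 0.09 and 0.81 after it (difference 2.94 ± 0.33, limma adjusted p = 0.000266). FZD1, a WNT receptor, read 10.23, 10.41 and 10.35 in granulosa before LH and 6.73, 6.71 and 7.52 after it, while theca read 9.46 to 9.96 and then 8.42 to 9.15 (difference 2.57 ± 0.35, limma adjusted p = 0.000794). DKK3, a secreted protein related to WNT antagonists, went the other way, with granulosa levels of 6.37, 6.78 and 6.44 before LH and 13.22, 11.03 and 10.34 after it (difference -3.84 ± 0.37, limma adjusted p = 0.000114). Without cow A, B, F or G 1 of the negative differences was called.

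Among the 1064 genes with a called difference, theca led the response in 71. In these the LH effect was called in theca and was larger there than in granulosa. In 17 of them the theca effect was a rise and in 54 a fall. For a gene below the limit for dim values in granulosa, such as CXCL14 or ANKS4B, a fall there could not be measured. How many of the 54 falls this holds for was not counted. Over all genes the LH effect in theca was a called rise in 2.34% and a called fall in 2.85%. The genes named from this group were chosen after their values were seen, except SLC7A5, LEF1, TM7SF2, MVK and GSTA4. SLC7A5, a transporter of large neutral amino acids, read 5.93, 5.72 and 5.64 in theca before LH and 9.04, 8.47 and 8.62 after it. Granulosa read 6.95, 6.87 and 7.48 and then 6.42, 6.15 and 7.38, with overlap. The transporter rose in theca by 2.95 ± 0.29 and its difference was 3.40 ± 0.33 (limma adjusted p = 0.000114).

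LEF1 and TCF7, transcription factors through which beta-catenin acts, both rose in theca and were not called in membrane granulosa. LEF1 had the same level in both layers before LH, with gaps of 0.01, 0.08 and -0.04, and gaps of 2.24, 1.19 and 1.19 after it (difference 1.53 ± 0.26, limma adjusted p = 0.0033). TCF7 read 5.95, 6.48 and 5.76 in theca before LH and 7.99, 7.90 and 7.50 after it (difference 2.16 ± 0.39, limma adjusted p = 0.00445). LOXL4, a collagen cross-linking enzyme, rose in theca by 4.23 ± 0.47 and in granulosa by 2.01 ± 0.47 (difference 2.22 ± 0.63, limma adjusted p = 0.0469). Leaving out A, B, D, F or G ended that call (adjusted p from 0.0803 to 0.21), as did the fit with no cow block (0.0756). That call also ended with the 12 theca and membrane granulosa arrays alone, dim values raised to the limit, or limma's trend and robust options.

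The falls led by theca began with genes of low granulosa signal. CXCL14, a chemokine, read 7.23, 6.89 and 7.33 in theca before LH and 3.94, 3.69 and 4.19 after it, while all granulosa values were between 3.37 and 4.20. ANKS4B, a scaffold protein, read 7.87, 7.89 and 7.84 in theca before LH and 3.89, 3.58 and 3.35 after it, with 3.32 to 4.47 in granulosa. The fitted differences were -2.86 ± 0.22 (limma adjusted p = 4.82e-05) and -3.49 ± 0.28 (limma adjusted p = 4.86e-05). All granulosa arrays and the theca arrays after LH were below the limit for both genes, so these sizes have no bound. SLC1A3, a glutamate transporter, fell in theca by 3.40 ± 0.35 (difference -2.43 ± 0.43, limma adjusted p = 0.00388). After LH its granulosa arrays and 2 of 3 theca arrays were below the limit, so this size has no bound either.

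TM7SF2, a sterol reductase of cholesterol synthesis, read 9.51, 8.79 and 9.56 in theca before LH and 6.98, 6.45 and 7.72 after it. The gaps were 2.36, 1.87 and 2.30 before LH and -0.08, -0.26 and -0.27 after it, so both layers ended at nearly the same level (difference -2.38 ± 0.29, limma adjusted p = 0.000398). MVK, mevalonate kinase of the same pathway, fell in theca by 0.99 ± 0.13 (difference -0.83 ± 0.17, limma adjusted p = 0.00982). Its call ended without cow B (adjusted p = 0.0597) or cow G (0.0591), and its 2 dimmer probe sets were not called. NPC1, which exports cholesterol from lysosomes, went the other way (0.91 ± 0.19, limma adjusted p = 0.00928). Its call was lost without cow A (0.0565), with no cow block (0.297) and with the cow as a random block. These were the called genes among 26 of cholesterol synthesis and uptake, where 7 fell in each layer (12.9% of all genes in granulosa and 2.85% in theca). GSTA4, a glutathione transferase, fell in theca by 0.96 ± 0.23 and was not called in granulosa (0.29 ± 0.23, difference -1.24 ± 0.19, limma adjusted p = 0.0014).

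In 4 genes the LH effect was called in both layers with opposite signs, each lower in theca and higher in granulosa after LH. SIPA1, which inactivates the small GTPase RAP1, read 8.51, 8.98 and 8.64 in theca before LH and 7.76, 7.97 and 7.57 after it. In granulosa it read 6.97, 6.56 and 6.97 and then 7.74, 7.71 and 7.31 (difference -1.70 ± 0.23, limma adjusted p = 0.000653). HSD17B10, a mitochondrial dehydrogenase, differed by -1.31 ± 0.18, the deubiquitinating enzyme UCHL3 by -1.22 ± 0.18 and the disulfide isomerase PDIA5 by -1.52 ± 0.27. Theca lost its higher level in SIPA1, HSD17B10 and UCHL3, whose gaps after LH were between -0.01 and 0.31. For PDIA5 theca was the higher layer in all 3 cows before LH and granulosa in the 3 other cows after it. However, its 2 dimmer probe sets read 0.15 and -0.06 and were not called.

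CYP19A1 and HSD17B1 fell in both layers. CYP19A1 read 13.92, 13.69 and 13.59 in granulosa before LH and 5.29, 4.99 and 3.70 after it. Theca read 10.85, 11.82 and 8.21 and then 4.08, 3.92 and 3.91, below the limit. Its difference of 2.75 ± 0.86 was not called (limma adjusted p = 0.0703, 95% interval 0.88 to 4.63). Because theca was below the limit after LH, this size has no bound. A dimmer CYP19A1 probe set was called (2.62 ± 0.53, limma adjusted p = 0.00841), and without cow F the brightest was too (3.54, adjusted p = 0.0402). HSD17B1, which completes oestradiol synthesis, fell by 4.05 in granulosa and 2.51 in theca (difference 1.53 ± 0.41, limma adjusted p = 0.0353). That call ended without any 1 of cows A, C, D and F (adjusted p from 0.0678 to 0.134) and with no cow block (0.11). With dim values raised to the limit HSD17B1 was not called either.

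CYP17A1 read 12.67, 10.48 and 12.11 in theca before LH and 5.28, 5.57 and 5.61 after it. In granulosa it read 10.42, 4.90 and 8.84 and then 4.88, 4.67 and 4.48. Its difference of -2.89 ± 0.93 was not called (limma adjusted p = 0.0766, 95% interval -4.91 to -0.88). It was called without cow D (-3.62, adjusted p = 0.0269) or without cow F (-1.95, adjusted p = 0.017). CYP11A1, the side-chain cleavage enzyme, read 8.64 and 8.04 in granulosa of cows A and B and 13.10 in cow C after LH, with 12.81 to 13.70 before it. Its difference was 2.00 ± 0.71 (limma adjusted p = 0.112) and 2.86 without cow C (adjusted p = 0.0147). The cholesterol carrier of mitochondria, STAR, differed by -1.33 ± 1.13 over a 95% interval from -3.77 to 1.12 (limma adjusted p = 0.56). HSD3B1, which makes progesterone, differed by 0.73 ± 0.43 (limma adjusted p = 0.365).

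The other called steroid genes, FDX1 and TSPO, had negative differences. FDX1, the electron carrier of mitochondrial steroid enzymes, had a mean of 10.86 in granulosa before LH and 12.34 after it, against 12.81 and 12.47 in theca (difference -1.83 ± 0.30, limma adjusted p = 0.00245). With no cow block it was not called (adjusted p = 0.209), nor with the cow as a random block. TSPO, a mitochondrial membrane protein, rose by 3.05 in granulosa and 1.81 in theca (-1.24 ± 0.32, limma adjusted p = 0.0292). Leaving out A, B, F or G ended that call (adjusted p from 0.0635 to 0.17), as did the fit with no cow block (0.0784). That call also ended with the 12 theca and membrane granulosa arrays alone or dim values raised to the limit. Of 18 measured steroid genes 1 difference was thus positive and 2 negative, against 5.66% and 5.96% of all genes, with a median of -0.50.

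**Figure D4:**
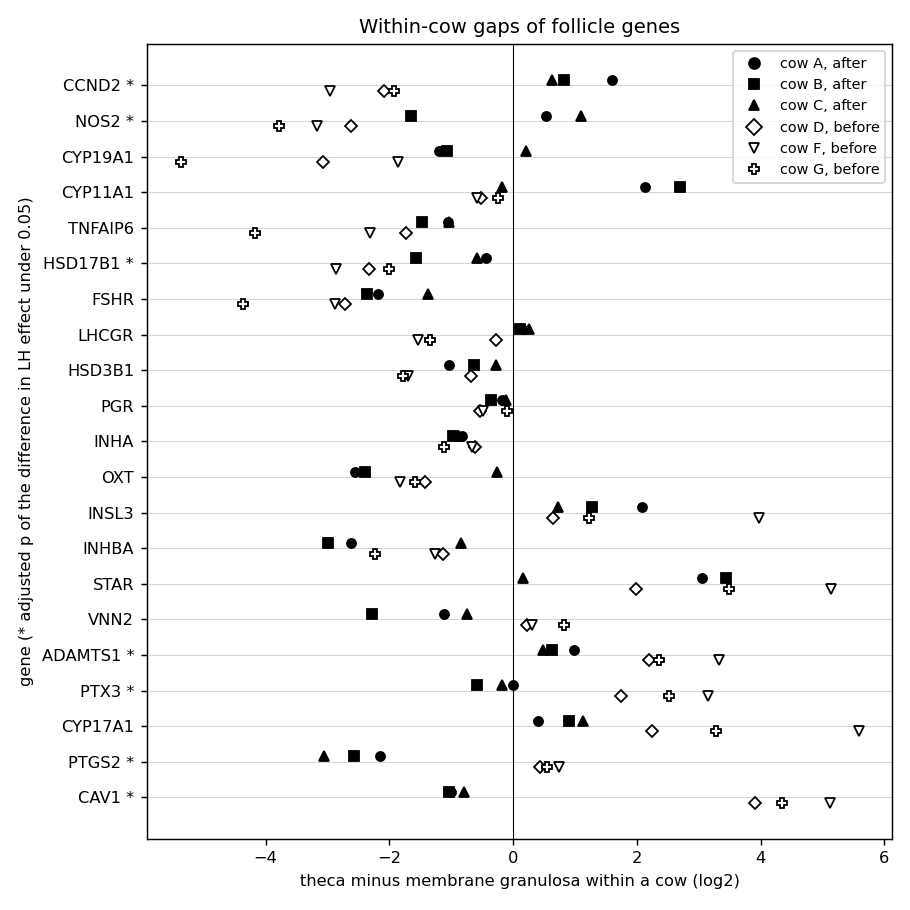
Gap (theca minus membrane granulosa, log2) of each cow for 21 follicle genes, with open symbols before LH, filled symbols after LH and a star for called genes. For CAV1, PTGS2 and CCND2 the filled and open symbols lie on opposite sides of 0, and for CYP19A1, CYP17A1 and STAR the open symbols spread over 3 units or more.

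The receptors for the gonadotropins fell in granulosa, and LHCGR was lower after LH in theca too. LHCGR, the LH receptor, read 9.57, 9.50 and 9.81 in granulosa and 9.28, 7.96 and 8.46 in theca before LH, and 5.18 to 5.97 and 5.43 to 6.08 after it. The layers had nearly equal levels after LH, and the difference of 1.22 ± 0.46 was not called (limma adjusted p = 0.13) except without cow D (1.61, adjusted p = 0.00179). FSHR, the receptor for FSH and a granulosa marker, fell by 1.97 ± 0.43 in granulosa and differed by 1.35 ± 0.39 (limma adjusted p = 0.0525). In theca FSHR read 4.21, 4.69 and 3.87 after LH, near or below the limit. It was called in 4 of its alternatives, 1 of them without cow D (adjusted p = 0.0439). PGR, the progesterone receptor, was below the limit in all 4 groups. INHA, the inhibin subunit, differed by -0.09 ± 0.17 with a 95% interval from -0.47 to 0.29. INHA levels in granulosa before LH, 14.49 to 14.69, were near the highest value of the table, 14.9. INHBA, the activin subunit, fell by 4.88 in granulosa and 5.48 in theca (difference -0.60 ± 0.46). It read 14.70 to 14.76 in granulosa before LH, near the highest value of the table, 14.9, and without cow C its difference was called (-1.26, adjusted p = 0.0397). INSL3, the peptide hormone of theca, differed by -0.59 ± 0.74, and its theca levels before LH, 14.68 to 14.84, were also near that highest value.

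Of 20 measured hormone and nuclear receptors 3 differences were positive and 2 negative, against 5.66% and 5.96% of all genes. ESR2, the oestrogen receptor of granulosa, fell in granulosa and had a mean of 4.70 in theca before LH and 4.74 after it (difference 1.27 ± 0.28, limma adjusted p = 0.0136). ESR2 levels in theca, 4.50 to 4.93 before LH and 4.68 to 4.78 after it, lay near the limit, so a fall there may not show. Its call ended without cow A (adjusted p = 0.0746), cow C (0.0573) or cow G (0.0813). NR2F1, an orphan nuclear receptor, rose in granulosa by 1.88 (difference -1.38 ± 0.29, limma adjusted p = 0.0112), and its call ended without cow B (0.0559), cow F (0.0525) or cow G (0.0651). In the inhibin, activin and TGF-beta list 3 of 29 were positive and 2 negative, against the same shares. SMAD2, which carries the activin and TGF-beta signal to the nucleus, fell in granulosa by 1.55 (difference 1.05 ± 0.18, limma adjusted p = 0.0028). The inhibitor of DNA binding ID2 differed by 1.60 ± 0.30 (limma adjusted p = 0.00521). It was not called with no cow block (adjusted p = 0.529) or with the cow as a random block.

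The IGF system holds ligands, a receptor and binding proteins that set ligand access in the follicle. Of 13 measured members 4 differences were positive and 1 negative (5.66% and 5.96% of all genes), with 2 positive without any 1 of cows A, D and G. IGF2, the ligand of theca, read 8.02, 5.54 and 7.76 in granulosa before LH and 9.60, 9.18 and 10.19 after it, against 10.55 to 11.53 in theca over both times (difference -2.84 ± 0.62, limma adjusted p = 0.0123). Without cow A its adjusted p was 0.0501, and with dim values raised to the limit it was not called. PAPPA, a protease of binding proteins, differed by 1.14 ± 0.21 (limma adjusted p = 0.00536), though 3 of its 4 groups lay below the limit. IGFBP7 differed by 0.85 ± 0.15 (limma adjusted p = 0.00388).

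The vascular and inflammatory lists were called at shares near that of all genes. FLT1, a receptor for vascular endothelial growth factor, read 3.66 to 4.26 in granulosa before LH and 7.39, 8.08 and 6.30 after it, while theca read 7.31, 8.08 and 6.69 and then 6.80, 7.27 and 7.34. Its difference was at least 2.85 in size (limma adjusted p = 0.000891), while its 2 dimmer probe sets read -0.17 and 0.25 and were not called. Over all 18 endothelial markers the mean was 4.34 to 4.91 in granulosa before LH and 4.79 to 5.61 after it, and 6.74 to 7.54 and 7.01 to 7.39 in theca. FLT1 was the 1 called member, and 7 of the 18 were below the limit in granulosa before LH and 4 after it. The part of endothelial RNA in the FLT1 result was not tested. VEGFC, a lymphatic growth factor, differed by 1.57 ± 0.28 (limma adjusted p = 0.00364). It was not called with no cow block (adjusted p = 0.37) or with the cow as a random block. Of 30 angiogenesis genes 2 differences were positive and 2 negative, and of 41 inflammation genes 1 was positive and 4 negative, against 5.66% positive and 5.96% negative over all genes.

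Among markers of other cells, 2 of 13 smooth muscle and pericyte markers were called, where 11.6% of all genes were. They were CSPG4 (2.88 ± 0.40, limma adjusted p = 0.00094) and MCAM (2.38 ± 0.43, limma adjusted p = 0.00407). CSPG4 read 8.22, 7.34 and 7.82 in granulosa and 5.41, 5.94 and 5.15 in theca before LH. MCAM had gaps of -1.06, -0.98 and -0.92 before LH. Both were therefore higher in granulosa than in theca at that time, whereas the mean of the list was 6.18 to 7.01 in granulosa and 8.46 to 9.08 in theca. Of 17 granulosa markers 4 differences were positive (ESR2, GJA1, HSD17B1 and TNNI3) and none negative, against 5.66% and 5.96% of all genes. The calls were 2 positive without cow A, and 2 positive and 1 negative without cow C. GJA1, the gap junction protein connexin 43, differed by 0.91 ± 0.16 and TNNI3, a troponin expressed in granulosa, by 1.41 ± 0.27. GJA1 read 14.28 to 14.65 in granulosa before LH, near the highest value of the table, 14.9. By limma no difference was called among 12 theca, 16 fibroblast, 25 leukocyte, 8 red cell and 8 oocyte markers. At an unadjusted p under 0.05 they held 5, 0, 2, 0 and 2 genes. The fibroblast mean was 7.07 to 7.97 in granulosa before LH and 7.97 to 8.99 after it, against 9.33 to 10.07 and 9.75 to 10.45 in theca.

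The ribosomal and respiratory chain lists held few called differences. By limma none of 57 cytosolic ribosomal proteins was called (2 at an unadjusted p under 0.05) and 1 of 46 respiratory chain subunits was, where 11.6% of all genes were. Of 33 genes of glycolysis and the citric acid cycle 2 differences were positive and 1 negative, against 5.66% and 5.96% of all genes. IDH3A, an isocitrate dehydrogenase subunit, fell in granulosa by 2.67 (difference 1.78 ± 0.36, limma adjusted p = 0.00799), with the call lost with no cow block (0.117). Of 31 antioxidant genes 4 differences were positive and 1 negative, against the same shares of all genes. GCLC, the catalytic subunit of glutathione synthesis, read 10.60, 10.66 and 10.35 in granulosa before LH and 4.82, 5.11 and 5.05 after it. Theca read 8.17, 6.82 and 7.05 and then 3.94, 4.17 and 4.23, below the limit, so the fitted difference of 2.31 ± 0.35 (limma adjusted p = 0.00148) has no bound. Of 28 proteases and inhibitors 1 difference was positive and 3 negative, with PLAU, the urokinase activator of plasminogen, at -2.21 ± 0.49 (limma adjusted p = 0.013). It was not called without cow B (adjusted p = 0.0754), with no cow block (0.101) or with dim values raised to the limit. Of 20 junction and caveolar genes 1 was positive and 3 negative, and of 22 regulators of G-protein signalling 1 was positive and 2 negative. For these 2 lists and the proteases too, the shares of all genes were 5.66% positive and 5.96% negative. The called shares were 16.1% (antioxidant), 14.3% (protease), 20% (junction) and 13.6% (G-protein), against 11.6% of all genes. Such small counts moved when a cow was left out, for example to 1 to 3 positive calls in the matrix list.

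**Figure D5:**
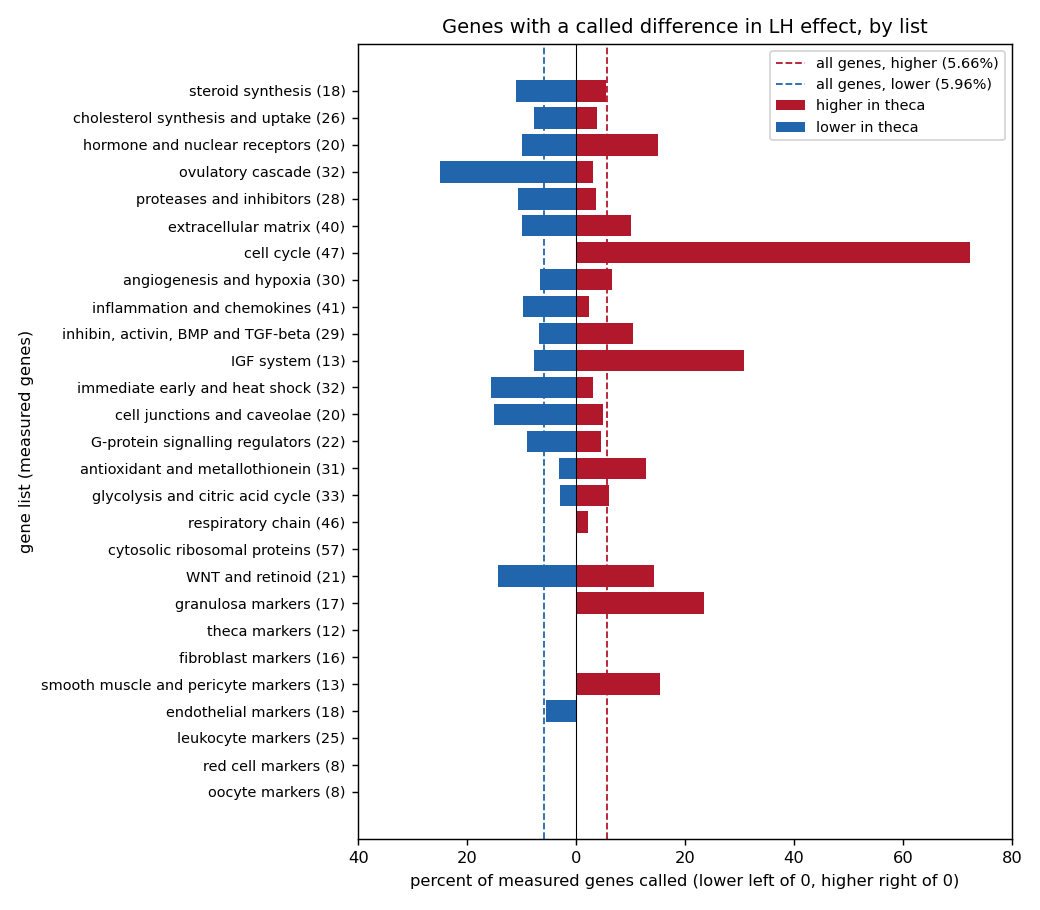
Percent of the measured genes of each list with a called difference in LH effect, positive to the right of 0 and negative to the left, for 27 lists with the number of measured genes in brackets and dashed lines at the share over all genes (5.66% and 5.96%). The cell cycle bar, 34 of 47 genes, is the longest, and the ribosomal protein list is among those with no bar.

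The antral granulosa arrays of the same follicles, which the contrast does not use, give a second granulosa reading. The LH effect in antral granulosa was 8.71 for CAV1, 8.21 for CLDN11 and 6.36 for TGFB2, against 6.37, 5.91 and 6.14 in membrane granulosa. It was -6.36 for CCND2, -4.22 for BIRC5 and -4.90 for SRGN, against -4.77, -3.35 and -3.86. For the genes led by theca it was -0.96 for SLC7A5, -0.40 for LEF1 and 0.35 for CXCL14, against -0.45, -0.42 and -0.34. TCF7 had a called fall of -1.20 in antral granulosa (limma adjusted p = 0.0134), against an uncalled -0.43 in membrane granulosa. These arrays come from the same 6 cows and are no independent sample. Among called genes not yet said to have them, CAV2, CSPG4, GJA1, IER2, IGF2, LMO7, MCM3, NOS2, PAPPA, PTGS2 and TGFBR2 also have 1 or more dimmer probe sets that were not called.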

How the data were processed

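Total RNA of theca, membrane-associated granulosa and antral granulosa of 6 cows was hybridised to Affymetrix bovine arrays. The authors deposited log2 signals, which they made with RMA in Partek 6.5 per the submitters' processing notes (settings not given in the sources used here). The 112 control probe sets were left out, which leaves 24016. Of these 13292 have 1 symbol in the platform annotation, 86 several and 10638 none. 13263 matched the RefSeq table, and no symbol changed. They give 9155 genes. Values ran from 2.29 to 14.9 with array medians from 5.74 to 5.86. Within groups, array correlations were 0.97 to 0.99. Precision is limited by how few arrays there are.

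Limma 3.58.1 in R 4.3.3 fitted all 18 arrays (8 residual degrees of freedom) with the cow as a fixed block for gaps and their difference, and with group means and no block for LH effects. Pairing comes from the cow in the labels. After removing group means, theca and granulosa of a cow correlated at 0.151 to 0.501, all 6 over 0.1. Differences of 4, 2, 1 and 0.5 added to 50 simulated probe sets each among 24016 were found in 100%, 84%, 34% and 0%, with 3 false calls among 112. The simulated noise was normal and independent between probe sets. Far fewer probe sets were changed than were called in the data, so these rates need not hold there.

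Named genes are the 12 largest called differences each way without overlap of the cows' gaps, up to 4 called members per list by adjusted p, and 21 fixed genes. Genes named otherwise, which include HPGD, VCAN and TGFBR2, were chosen after their values were seen. The genes, the rule and the 27 lists (792 genes, 639 measured, 62 in several) were chosen with earlier results of these data known. No set test was run. Alternatives changed the normalization, dim probe sets, probe sets per gene, prior, minimum size, arrays, block and cows. Figures used matplotlib 3.10.9 in Python 3.11.15.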

Additional observations from a re-analysis of the deposited data

Results flagged for a closer look

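The difference in LH effect between theca and membrane granulosa was itself tested, and 2192 of 24016 probe sets passed. In 4 genes the LH effect was called in each layer with opposite signs, with a fall in theca and a rise in granulosa. Their differences were -1.70 for SIPA1, -1.52 for PDIA5, -1.31 for HSD17B10 and -1.22 for UCHL3. These 4 differences stayed called under all 16 alternatives run. The LH effects within each layer were not refitted there, so the opposite signs were not checked. In theca the limma adjusted p was 0.0031 for SIPA1, 0.0207 for PDIA5, 0.0336 for HSD17B10 and 0.0469 for UCHL3. The groups of 3 are too small for a test of single outlying arrays.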

How the results depend on the processing

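The 2192 calls (1095 positive, 1097 negative) became 1016 (529 and 487) with no replicate block, of which 1014 were also called with the cow block. They became 1184 (571 and 613) with 1 probe set per gene, where only 9155 were tested. With a cow left out they were 1074 to 2192, the positive calls 520 to 1058 and the negative calls 554 to 1134, each such fit resting on fewer cows. The other settings gave 1526 to 2207 calls. Positive calls were 46.7% to 53.3% of all calls. Raising dim values to the limit turned the sign of 9 of the 2192 calls. Of 110 called genes that were named by the rule or chosen later, 66 were called under all alternatives run, 44 were lost in 1 or more, and none turned. Of the uncalled ones 9 were called in 1 or more. The cause was not tested. Signals near the lowest values of the table are not separated from background, which limits the size of differences from them.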
